A study of Mus musculus with 3 samples.

Results

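The renin-angiotensin genes described here are Agtr2, Ace, Agt, Agtr1a and Ren1, 5 of the 18738 genes listed in the count tables of fetal ovarian somatic cells. They were chosen by their measured values in these same tables, under the working name of renin-angiotensin genes in stroma, so their levels across cell types are given as a description with no test. The samples are 3 lots (26, 29 and 30) of cells from ovaries of CD1 mouse embryos at E12.5 (days of embryonic development). Each lot pooled the embryos of 10 pregnant females, was depleted of cells binding SSEA1 and CD31 antibodies (on germ cells and endothelial cells), frozen, and read by 10X Genomics single-cell RNA sequencing after thaw. The labels give no genotype other than the CD1 stock and no treatment, so no conditions were compared, and the cells had passed through dissociation, magnetic sorting and freezing. The name stroma holds for Agtr2 within the ovarian classes and in part for Ren1. It does not hold for Agtr1a, which was highest in pre-granulosa-like cells, nor for Ace, which had 80 unique molecular identifiers (UMIs, counted molecules) in all kept cells.

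The renin-angiotensin system makes the peptide angiotensin II. Renin, encoded by Ren1, cleaves angiotensinogen, encoded by Agt, and angiotensin-converting enzyme, encoded by Ace, cuts the product to angiotensin II. The peptide acts on the type 1 receptor, encoded in mice by Agtr1a and Agtr1b, and on the type 2 receptor, encoded by Agtr2. The type 2 receptor is known for its high level in fetal mesenchyme, and the adult ovary is known to make renin and angiotensin peptides of its own.

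A total of 28971 of 29103 barcodes were kept (200 to 9000 genes and at most 10% mitochondrial UMIs), with a median of 11126, 8949 and 11595 UMIs per kept cell in lots 26, 29 and 30. Among the 28902 distinct kept barcodes, 69 were found in more than 1 lot. The cells formed 22 clusters, which were named from marker lists. Left out of the variable genes were 49 listed genes, the members, the other pathway genes and cell type genes from the authors' figures. The stromal-like class held 2235, 1867 and 2329 cells of the 3 lots in clusters 3, 4, 10, 13 and 16. The mesenchymal genes Tcf21, Nr2f2 and Col1a1, which were on no marker list, averaged 259, 377 and 427 CPM (the gene's UMIs per 1000000 UMIs of the summed cells) in that class, against 5.38, 56.6 and 9.87 CPM in the pre-granulosa-like class and 104, 148 and 84.3 CPM in epithelial-like cells. Foxl2, a granulosa lineage gene, was at 4.96 CPM in the pre-granulosa-like class and 0.597 CPM in stromal-like cells. Wnt4 averaged 623 CPM in the pre-granulosa-like class, Upk3b and Krt19 were at 233 and 132 CPM in epithelial-like cells, Ddx4 and Dazl at 239 and 984 CPM in germ-like cells, Pecam1 at 314 CPM in endothelial-like cells, Cd68 at 120 CPM in macrophage-like cells, and Hba-a1 at 1.74e+05 CPM in the red-blood-cell-like class. The cell type genes from the authors' figures were held out, but other genes of the same cell types could enter the clustering. The values thus describe the classes and test nothing. Clusters 3 and 11 had a marker of another class and none of their own among their 10 leading genes, and 81.8% of the cells of cluster 16 were called doublets, so the stromal-like levels of Agtr2, Ren1, Agt and Agtr1a are also given without clusters 3 and 16.

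The genes lie on 5 chromosomes of GRCm38, and all are protein coding. In the GENCODE annotation Ren1 spans chr1:133350510-133360325 (plus strand), Agt chr8:124556534-124569706 (minus), Ace chr11:105967945-105989964 (plus), Agtr1a chr13:30336441-30382867 (plus) and Agtr2 chrX:21484544-21489164 (plus). An antisense gene, Gm11651, lies over 17750 bases of Ace and a sense-intronic gene, Gm48161, over 6825 bases of Agtr1a. Neither is listed in the count tables, and the strand setting of the counting is not given in the sources used here. Some mouse strains carry Ren2, a near-identical copy of Ren1, whose reads could not be told apart from those of Ren1. RefSeq lists 2 starts for Ace, 7241 bases apart, and counts taken at the 3′ end cannot tell their transcripts apart.

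The promoters of 4 of the 5 genes were found in the RefSeq table (GRCm38.p6), with Agtr1a named only. The 30 bases from 45 to 16 before the start are shown because the members differ there in a motif that marks focused starts. Capitals mark TATANA (N is any base), searched on the gene's strand.
Ren1, chr1:133350629-133350658, plus strand: tgtgatacatggtgtgTATAAAagaaggct
Agt, chr8:124569722-124569751, minus strand: tctccaccccttgagTATAAAtaagcctgc
Agtr2, chrX:21484579-21484608, plus strand: ccagtggacagagcgaaTATATAagaagga
Ace, first start, chr11:105967903-105967932, plus strand: ggtggtggctgggttttataatccgcaggg
The motif began 29 bases before the RefSeq start of Ren1, 30 before that of Agt and 28 before that of Agtr2. The GENCODE spans of Ren1 and Agtr2 begin further upstream, so the stretches shown for these genes lie within those spans. The motif lay in none of the 250 bases before either start of Ace. Among 32851 promoters with a full window, 16.4% held it anywhere in the 250 bases and 3.40% within the stretch shown. The match is a description of these letters and says nothing of the factors bound there.

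Agtr2, the type 2 receptor, had 2125 UMIs in 1059 kept cells, and 69.8% of these UMIs were in stromal-like cells. Its level in the stromal-like class was 24.7, 22.0 and 17.4 CPM in lots 26, 29 and 30 (mean 21.4 ± 3.70 CPM, SD, n = 3 lots). In the pre-granulosa-like class it was at 1.35, 0.657 and 0.516 CPM, and in epithelial-like cells the mean was 1.11 ± 0.362 CPM. All 3 lots of the stromal-like class lay above every lot of both other large classes, and the ranges did not overlap. Without called doublets the stromal-like mean was 23.1 ± 4.51 CPM, without cluster 16 it was 22.5 ± 4.22 CPM, and without cluster 3 (clusters 3 and 11 left unnamed) it was 31.3 ± 5.67 CPM. Clustering at a resolution of 0.4 in place of 0.8 drew the class more narrowly, at 35.3 ± 7.75 CPM. The level of the class hid a wide range within it, from 2.51 ± 0.253 CPM in cluster 3 to 95.6 ± 10.3 CPM in cluster 10.

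Cluster 10, led by the matrix genes Lum, Vcan and Dcn, held 1020 cells and 30.4% of all Agtr2 UMIs. Its level was 104, 98.7 and 84.1 CPM in the 3 lots. Cluster 13, led by Foxd1, Dkk2 and Postn, was at 37.3, 28.8 and 46.9 CPM. Cluster 4, with cycling genes among its leading genes, was at 26.4, 18.7 and 12.7 CPM, and cluster 16 at 10.2 ± 3.34 CPM. Cluster 3, the largest with 2603 cells and led by genes such as Sparcl1, Myh8 and Ngfr, was at 2.33, 2.798 and 2.40 CPM. In the order 10, 13, 4, 16 and 3, the lot ranges of clusters 10, 13 and 4 did not overlap, and cluster 4 lay just above cluster 16, whose highest lot was at 12.6 CPM. The range of cluster 3 overlapped those of clusters outside the stroma.

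The highest Agtr2 level of any cluster was outside the ovarian classes, in the 53 cells of the neural-crest-like cluster 21 (14, 30 and 9 cells in lots 26, 29 and 30). These cells held the chromaffin and sympathetic genes Chgb at 5868 CPM, Chga at 1073, Dbh at 557 and Th at 390 CPM on average, while Tcf21 averaged 48.2 CPM. Agtr2 was at 520 CPM in lot 26 (143 UMIs, exact Poisson 95% interval 438 to 612 CPM), 603 CPM in lot 29 (176 UMIs, 517 to 699) and 236 CPM in lot 30 (34 UMIs, 163 to 330). Such intervals cover counting error only. A UMI of Agtr2 was found in 10 of 14, 28 of 30 and 4 of 9 cells, and these 53 cells held 16.6% of all Agtr2 UMIs. Every lot of cluster 21 lay above every lot of cluster 10, with lot 30 the lowest of the 3. When all held-out genes were put back among the variable genes, the neural-crest-like mean was 860 ± 234 CPM. The cluster then held 38 cells (7, 27 and 4 in the 3 lots). Agtr2 is itself 1 of the genes put back, so this value is no independent check of its level. The neural-crest-like cells were few, and whether they came from the ovary or from tissue beside it was not tested.

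The share of cells with an Agtr2 UMI followed the summed levels. It was 12% ± 1.58 (SD, n = 3 lots) of stromal-like cells, 0.810% ± 0.480 of pre-granulosa-like cells and 1.78% ± 0.750 of germ-like cells, taken here as the background from free RNA. By lot the stromal-like share was 13.8% (exact Clopper-Pearson 95% interval 12.4 to 15.3%), 10.8% (9.40 to 12.3%) and 11.5% (10.2 to 12.8%). Depth differed between classes, with medians of 9537, 7865 and 10144 UMIs in stromal-like cells and 21711, 18134 and 23767 UMIs in germ-like cells of the 3 lots, so cells were also thinned to 4000 UMIs. After thinning, Agtr2 was found in 7.18% ± 1.08 of stromal-like, 0.308% ± 0.218 of pre-granulosa-like and 0.521% ± 0.465 of germ-like cells. Within the stroma the thinned share was 23.3% ± 1.91 in cluster 10, 13.3% ± 7.29 in cluster 13, 6.61% ± 2.37 in cluster 4 and 0.978% ± 0.0662 in cluster 3. Even in the highest stromal cluster most cells had no UMI of the gene at this depth. The thinned share in cluster 3 lay within 1 SD of the germ-like share, while its CPM range, 2.33 to 2.798, lay above the germ-like range of 0.504 to 1.55 CPM. The median depth was 8582 UMIs in cluster 3 and 21193 in germ-like cells. A like amount of free RNA per cell gives a lower CPM in deeper cells, so these values cannot place cluster 3 above the background.

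**Figure D1:**
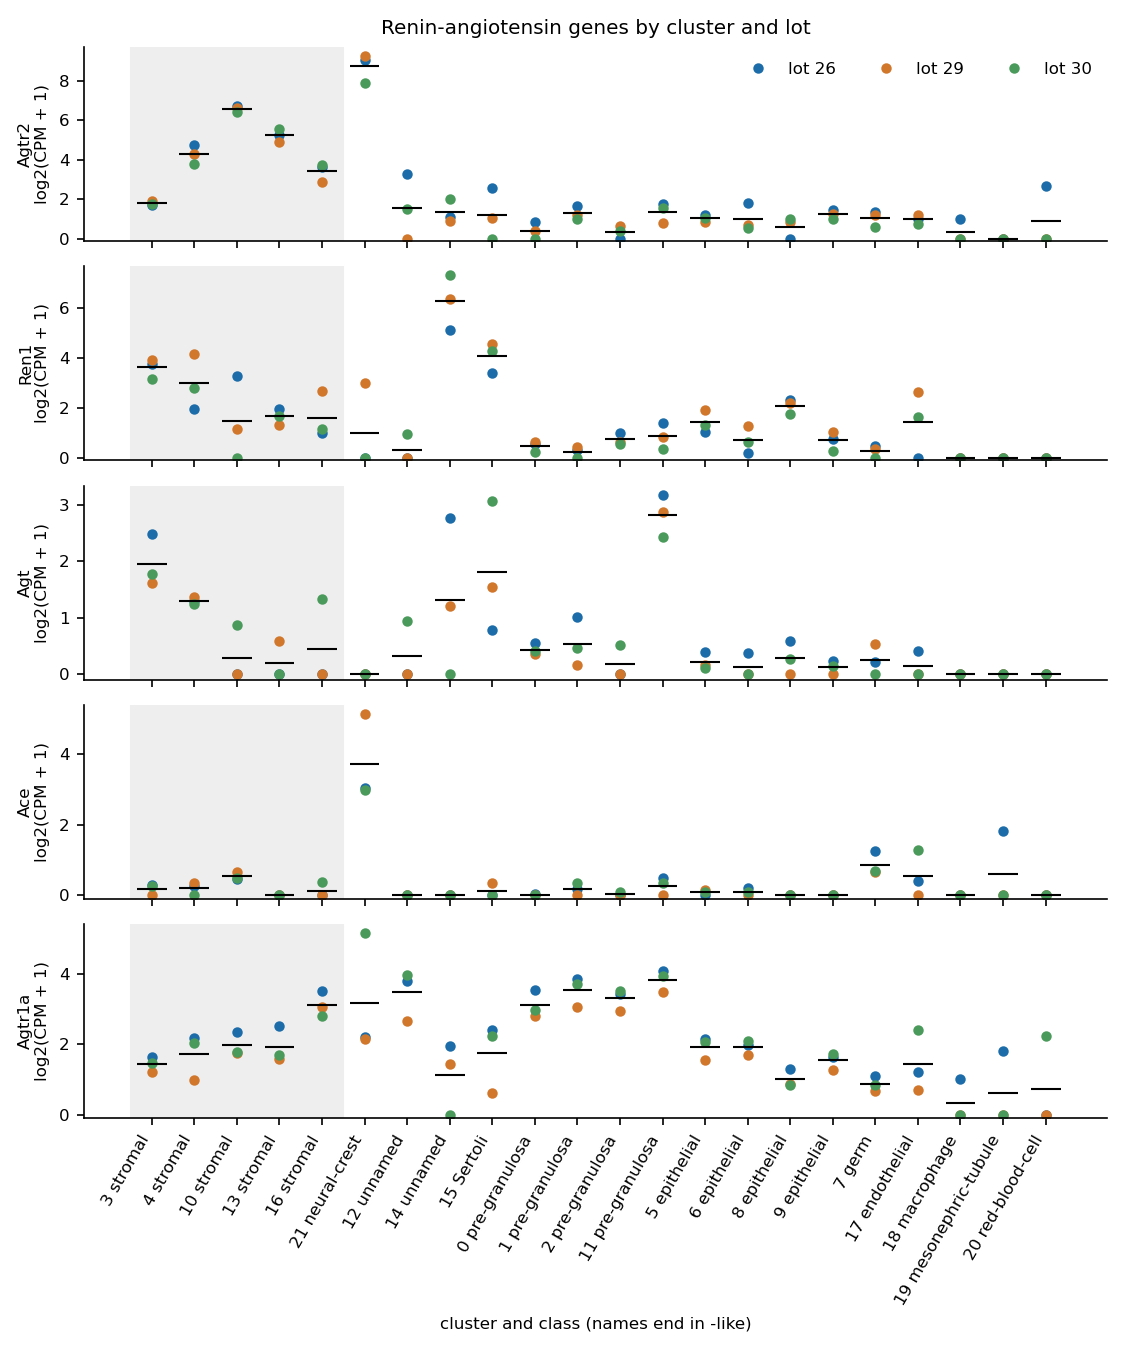
Level of each gene as log2(CPM + 1) of summed UMIs (vertical axes) in the 22 clusters (horizontal axis, with the class of each cluster), 1 point per lot and a black bar at the mean of the 3 lots; grey marks the stromal-like clusters. Agtr2 stands highest in clusters 21 and 10, Ren1 in cluster 14, Agt in cluster 11, Ace in cluster 21, and Agtr1a is spread over the pre-granulosa-like clusters.

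Ren1, the gene for renin, had 1125 UMIs in 426 kept cells. In stromal-like cells it was at 6.77, 11.97 and 5.38 CPM in lots 26, 29 and 30 (mean 8.04 ± 3.47 CPM), against 0.434 ± 0.0788 CPM in the pre-granulosa-like class and 1.48 ± 0.666 CPM in epithelial-like cells. Every stromal-like lot lay above every lot of both other classes. The stromal-like mean was 6.12 ± 4.18 CPM without cluster 3 (clusters 3 and 11 left unnamed) and 8.61 ± 3.34 CPM without cluster 16. The class held 46.6% of the gene's UMIs, and a single unnamed cluster held a further 26.2% of them in 416 cells.

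That unnamed cluster, number 14, was led by Insl3 and the steroid-making genes Cyp11a1 and Cyp17a1. It was left unnamed because fewer than 60% of its cells held 2 markers of the steroidogenic list. Ren1 was at 33.9 CPM in lot 26 (59 UMIs in 129 cells), 80.3 CPM in lot 29 (186 UMIs in 255 cells) and 156 CPM in lot 30 (50 UMIs in 32 cells). The mean of 90.1 CPM had an SD of 61.5 CPM. The lot ranges of this cluster were wide, and lot 30, the highest, was the lot with the fewest cells. Without lot 30 the mean was 57.1 CPM. Every lot still lay above the highest lot of any other cluster, which was 22.2 CPM in the Sertoli-like cluster 15. Splits at 5 UMIs of Insl3, a fetal Leydig cell gene, and 3 UMIs of Cyp21a1, an adrenal cortex gene, were chosen after their values had been seen. Ren1 was found in 8 of 24 cells past the first split alone (61 UMIs, 153 CPM), in 1 of 12 cells past the second alone (37 UMIs) and in 56 of 379 cells past neither (175 UMIs, 48.7 CPM). The 1 cell past both held 22 UMIs. In the whole cluster, 85 of 129, 164 of 255 and 25 of 32 cells had a UMI of Y-linked Ddx3y, Eif2s3y, Kdm5d or Uty. Among stromal-like cells such a UMI was in 84 of 2235, 265 of 1867 and 33 of 2329. The cells of cluster 14 with one held 44 of its 59, 146 of 186 and 36 of 50 Ren1 UMIs. Ren1 CPM was higher with such a UMI in lots 26 and 29 and lower in lot 30, where 7 cells had none. This split was also made after the values had been seen.

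In the Sertoli-like cluster, named for the supporting cells of the fetal testis, Ren1 was at 9.39, 22.2 and 18.5 CPM in 90, 287 and 16 cells. Stromal cluster 3 followed at 12.7, 14.2 and 7.98 CPM and cluster 4 at 2.92, 16.7 and 6.01 CPM. The ranges of these 3 clusters overlapped, so the lots do not set their order. Clusters 13 and 16 were at 2.20 ± 0.676 and 2.51 ± 2.42 CPM. Cluster 10, where Agtr2 was highest in the stroma, was at 8.59, 1.204 and 0 CPM, and 21 of the 23 UMIs in lot 26 came from 1 cell. The floor of 3 UMIs corresponds to 1.23 CPM in lot 30. The level of Ren1 in cluster 10 thus rested on 5 cells, 25 UMIs in all.

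Ren1 and Agtr2 were seldom counted in the same stromal-like cell. Of 6431 stromal-like cells, 776 had a UMI of Agtr2, 176 had one of Ren1 and 6 had both. Ren1 was found in 0.773% of the cells with Agtr2 and 3.01% of those without it. In cluster 4, where both genes were counted in more cells, 240 cells had Agtr2, 82 had Ren1 and 1 had both, so that 0.417% of cells with Agtr2 and 4.72% of those without it held Ren1. The median depth there was 11481 UMIs with Agtr2 and 12484.5 without it. In cluster 13 the order was the other way, with Ren1 in 3.64% of the 110 cells with Agtr2 and 1.42% of the others. The shares were close in cluster 3, at 2.33% of the 43 cells with Agtr2 and 2.77% of the others. There 72 cells had Ren1 and 1 had both. Cells of 1 lot share a library, and no test was run on cells.

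**Figure D2:**
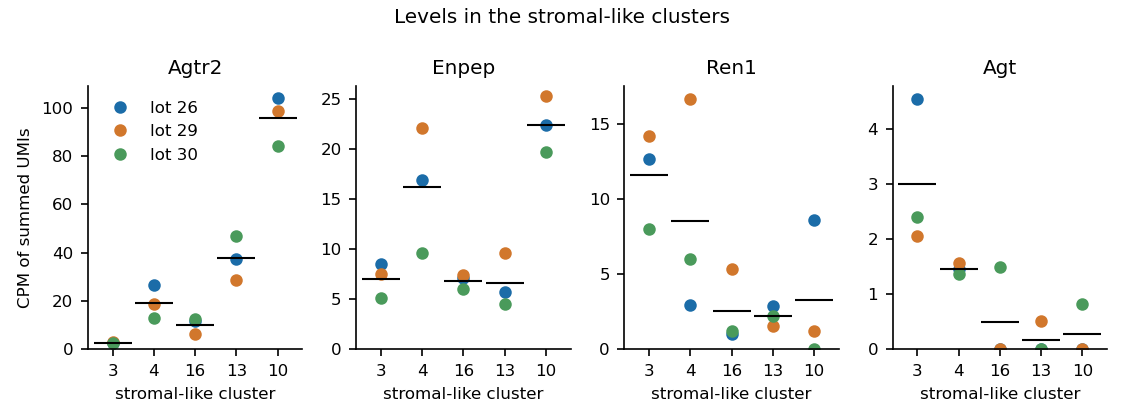
CPM of summed UMIs (vertical axes) of Agtr2, Enpep, Ren1 and Agt in the 5 stromal-like clusters (horizontal axes), 1 point per lot and a bar at the mean. The means of Agtr2 and Enpep are highest in cluster 10, and the means of Ren1 and Agt are highest in cluster 3.

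The Ren1 UMIs were gathered in few cells. Of them, 49.7% were in the 52 cells with 5 or more, and the 10 highest cells held 20.5%, with a maximum of 37 UMIs in a cell of cluster 14. Of the 19 cells with 10 or more UMIs, 7 were in cluster 3, 6 in cluster 14 and 4 in cluster 4, with 1 each in clusters 10 and 15. In cluster 3 a UMI of Ren1 was present in 2.77% ± 0.203 of cells, yet the highest cell held 32 UMIs. Agtr2 had 29.1% of its UMIs in 78 cells with 5 or more, 27 of them in cluster 21 and 24 in cluster 4. By contrast 91.0% of the cells with Agtr1a and 90.4% of those with Agt had a single UMI, and no cell had more than 4 of either gene.

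**Figure D3:**
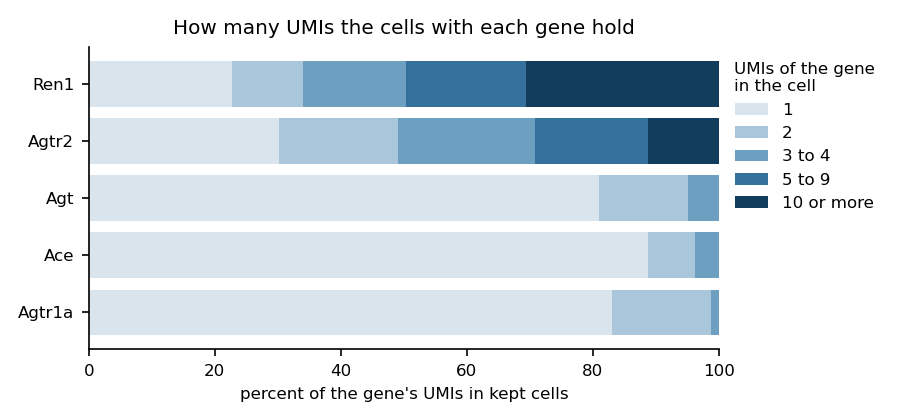
Percent of each gene's UMIs in kept cells (horizontal axis) that lay in cells with 1, 2, 3 to 4, 5 to 9 or 10 or more UMIs of that gene (shades). For Ren1, 49.7% lay in cells with 5 or more, for Agtr2 29.1%, and for Agt, Ace and Agtr1a 0%.

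The Ren1 level of the stroma also moved with Y-chromosome genes. Cells were split by a UMI of any of the 4 genes Ddx3y, Eif2s3y, Kdm5d and Uty, after the values had been seen. In lot 26, Ren1 was at 43.7 CPM in the 84 stromal-like cells with such a UMI and 4.50 CPM in the 2151 cells without one. In lot 29 it was at 27.8 and 8.33 CPM in 265 and 1602 cells, and in lot 30 at 57.6 and 4.35 CPM in 33 and 2296 cells. All 3 lots had the higher level in the cells with a Y-linked UMI. With the highest cell of each side left out, the values were 22.0 and 4.00 CPM in lot 26, 22.9 and 6.38 CPM in lot 29 and 29.1 and 3.88 CPM in lot 30, in the same order. The cells with a Y-linked UMI were the deeper ones (medians 14529 and 9405 UMIs in lot 26), and a cell without one can still carry a Y chromosome. Within cluster 4 the order held in all 3 lots, at 7.0 and 2.45 CPM, 37.7 and 7.39 CPM, and 80.6 and 3.41 CPM with and without a Y-linked UMI. With the highest cell of each side left out, these were 4.11 and 1.99, 30.5 and 5.98, and 37.0 and 2.41 CPM. The 7.0 CPM of lot 26 rested on 7 UMIs in 3 of 53 cells, and the Poisson intervals of the 2 sides overlapped there. In lot 30, 16 of the 28 UMIs of the 19 cells with a Y-linked UMI came from 1 cell. Within cluster 3 the order did not hold in every lot. The values were 159.6 and 8.99 CPM in lot 26 (14.3 and 7.64 CPM without the highest cells). They were 9.53 and 7.97 CPM in lot 30, the first from 1 UMI in 9 cells, and 0 and 14.8 CPM in lot 29. In lot 29 the 24 cells with a Y-linked UMI had no Ren1 UMI, a count whose exact Poisson 95% interval reaches 17.3 CPM. Agtr2 was not higher in the cells with a Y-linked UMI in any lot, with 4.09 and 26.01 CPM in lot 26, 21.8 and 22.0 CPM in lot 29 and 7.43 and 17.6 CPM in lot 30. The part of male cells in the Ren1 level of the stroma, or of cluster 14, was not tested.

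**Figure D4:**
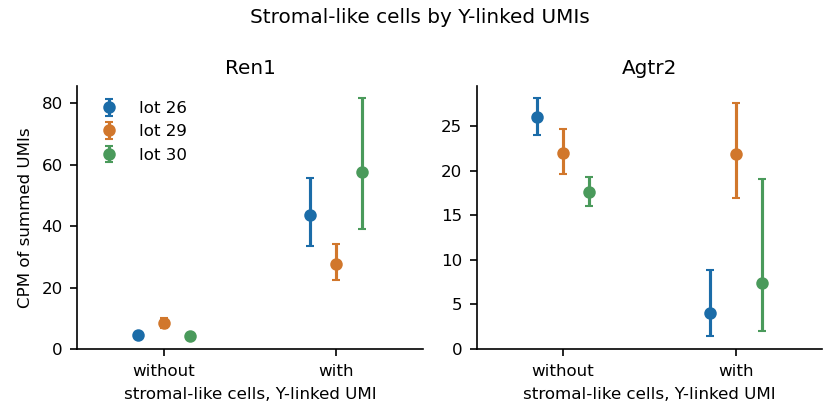
CPM of Ren1 (left) and Agtr2 (right) in stromal-like cells without and with a Y-linked UMI (horizontal axes), 1 point per lot with its exact Poisson 95% interval, which covers counting error only. Ren1 was at 27.8 to 57.6 CPM with and 4.35 to 8.33 CPM without such a UMI.

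Agt, the gene for the renin substrate angiotensinogen, had 267 UMIs in 239 cells. It was at 2.18, 1.36 and 1.61 CPM in stromal-like cells (mean 1.72 ± 0.420 CPM), 0.715 ± 0.291 CPM in the pre-granulosa-like class and 0.140 ± 0.144 CPM in epithelial-like cells. The lowest stromal-like lot lay above the highest pre-granulosa-like lot, at 1.03 CPM. The class values again covered unlike clusters. The highest level was in cluster 11, led by Pax8 and Aldh1a3 and named pre-granulosa-like, at 8.04, 6.27 and 4.39 CPM (20, 8 and 16 UMIs). Stromal cluster 3 was at 4.55, 2.05 and 2.40 CPM and cluster 4 at 1.46 ± 0.105 CPM, while clusters 10 and 13 together held 3 UMIs. The ranges of clusters 11 and 3 overlapped. Without cluster 3 (clusters 3 and 11 left unnamed) the stromal-like mean was 1.02 ± 0.157 CPM, and with clustering at a resolution of 0.4 it was 1.10 ± 0.0791 CPM. Without cluster 16 it was 1.84 ± 0.547 CPM. The highest stromal mean of Agt, like that of Ren1, was thus in cluster 3 and not in cluster 10, where Agtr2 was highest, and 5 of the 176 stromal-like cells with Ren1 also had Agt.

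Ace, the gene of the converting enzyme, was near 0 in the ovarian classes. Stromal-like cells held 5, 3 and 4 UMIs of it in the 3 lots, or 0.173 ± 0.0275 CPM, and epithelial-like cells 4 UMIs in all. Of the 80 UMIs, 35 were in germ-like cells, at 1.39, 0.585 and 0.604 CPM, and 13 were in the 53 neural-crest-like cells, at 7.27, 34.3 and 6.94 CPM. Both clusters thus held more CPM than stroma in every lot, on few molecules. The share of stromal-like cells with a UMI of Ace, 0.185% ± 0.0337, was below that of germ-like cells, 1.98% ± 1.07, and so it was after thinning, at 0.0526% ± 0.0565 and 0.311% ± 0.338. Clusters 13 and 14 had no UMI of Ace in any lot, which allows a level of up to 1.51 CPM in cluster 13 and 1.30 CPM in cluster 14 in lot 29, the lot with most UMIs of both.

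Agtr1a, a type 1 receptor gene, had 1922 UMIs in 1755 cells, and 72.2% of them were in pre-granulosa-like cells. There it was at 11.9, 6.67 and 10.7 CPM (mean 9.75 ± 2.73 CPM), against 3.96, 1.71 and 2.87 CPM in stromal-like cells (mean 2.85 ± 1.12 CPM) and 2.38 ± 0.619 CPM in epithelial-like cells. Lot 29 was the lowest in both pre-granulosa-like and stromal-like cells. All pre-granulosa-like lots lay above all stromal-like lots. The 4 pre-granulosa-like clusters ranged from 7.86 ± 2.50 CPM in cluster 0 to 13.6 ± 3.06 CPM in cluster 11, and their lot ranges overlapped, so no order among them is given. Of the stromal-like clusters, cluster 16 stood apart at 7.98 ± 2.32 CPM, and the other 4 were between 1.74 and 3.01 CPM. Without cluster 16 the stromal-like mean was 2.30 ± 0.868 CPM, without called doublets 2.11 ± 0.764 CPM and without cluster 3 it was 3.45 ± 1.54 CPM. The share of pre-granulosa-like cells with a UMI was 9.49% ± 3.54, or 3.61% ± 1.11 after thinning to 4000 UMIs, against 1.07% ± 0.305 of stromal-like and 0.134% ± 0.232 of germ-like cells. The unnamed cluster 12, of shallow cells with a median of 2673 UMIs, was at 11 ± 4.89 CPM. The neural-crest-like cluster gave 3.64, 3.43 and 34.7 CPM on 1, 1 and 5 UMIs, too few to place it.

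The 2 receptors thus had their highest ovarian levels in different classes, Agtr2 in stroma and Agtr1a in pre-granulosa-like cells. Within the stroma, Agtr1a was found in 4.12% of the cells with Agtr2 and 2.85% of those without it. Agtr1b, the second type 1 receptor gene, had 32 UMIs, of which 7, 9 and 13 were in stromal-like cells of the 3 lots and 3 in epithelial-like cells. It was too low to be tested, and so were the receptors for angiotensin 1-7 and related peptides, Mas1 (9 UMIs) and Mrgprd (1 UMI).

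The genes whose levels across clusters were most like those of each member were listed by Pearson's r of log2(CPM + 1), averaged over lots, across the 21 clusters with at least 10 cells in every lot, among genes reaching 50 CPM in a cluster. The neural-crest-like cluster, with 9 cells in lot 30, was left out. The clusters share the 3 libraries, and these values are a description. For Agtr2 they were Ntrk2 (r = 0.96), a neurotrophin receptor gene, Lum (0.95), a matrix proteoglycan, Fap (0.93), a fibroblast surface protease, and Cxcl13 (0.92), a chemokine. All were highest in cluster 10 or 13. For Ren1 they were Foxs1 (0.84), Ppp1r14a (0.82), Prokr2 (0.81), Cbln4 (0.80) and Eif2s3y (0.80), highest in cluster 14 or the Sertoli-like cluster. Eif2s3y lies on the Y chromosome. For Agtr1a they were Adm (0.88), the gene of the vasodilator adrenomedullin, Laptm4b (0.88), Fndc5 (0.88), Ttc38 (0.87) and Fmnl2 (0.86). Ace gave Trim71 (0.84), Gclc (0.71), Eif2b3 (0.71) and Cldn7 (0.69), the first 3 highest in germ-like cells, and Agt gave no gene over Ppfibp2 (0.69), followed by Akr1b8 (0.68), Htra1 (0.67), Zwint (0.65) and Tpd52l1 (0.65). Ace and Agt rest on so few UMIs that their lists are weak. Between members, r was highest for Agt and Ren1 (0.55), and it was 0.22 for Agtr2 and Ren1 and 0.08 for Agtr2 and Agt. By rank (Spearman's rho) these 3 pairs lay closer together, at 0.62, 0.54 and 0.60.

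The other genes of the pathway were taken from a list of 31 genes for peptide processing, receptors, the kinin branch and aldosterone action. They were held out of the clustering, but the list, like the members, was chosen with earlier results of these data known. Of these, 30 were in the tables and 21 passed the filter on low counts. Their UMIs were summed per class and lot and compared by the quasi-likelihood test of edgeR, and p-values were adjusted over 13820 genes by Benjamini and Hochberg's method. Against the mean of the 7 other classes tested, 4 of the 21 (19.0%) were called higher in stromal-like cells, Enpep, Mme and Hsd11b2 among them, and 4 were called lower, Ctsd, Dpp3, Nln and Prep. Among all genes tested, 26.6% were called higher and 6.53% lower. The share of the list called higher was below that of all genes. The median log2 fold change was -0.18 for the list and 0.22 for all genes in this contrast. With another normalization (the RLE factors) the median of all genes was 0.12, and with DESeq2 it was -0.01, so changes near these values are set by the scaling. Over all genes the split was 3681 higher and 903 lower, 2821 and 1294 with RLE factors, and 3017 and 3106 with DESeq2.

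Against pre-granulosa-like cells, 4 of the 21 genes were called higher in stromal-like cells and 7 lower, beside 22.5% and 25.8% of all genes. Against epithelial-like cells, 5 were called higher and 3 lower, beside 16.7% and 14% of all genes. With the lot as a block in the model, 5 genes were called lower against epithelial-like cells, but then 3492 of all 13820 genes were. The 3 genes lower there were Dpp3, Nln and Thop1. The number lower was 1 without lot 26 and 0 without lot 30, where edgeR gave 3 at an unadjusted p under 0.05. All genes called lower then numbered 1248 and 1040, against 1934 with all lots.

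Enpep, aminopeptidase A, which trims angiotensin II, was at 12.9, 15.5 and 8.10 CPM in stromal-like cells and at 0.695, 0.197 and 0.327 CPM in the pre-granulosa-like class (log2 fold change 4.71 ± 0.336, edgeR adjusted p = 2.03e-11). In epithelial-like cells it was at 2.13, 1.67 and 1.61 CPM, a log2 fold change of 2.68 ± 0.294 (edgeR adjusted p = 8.24e-08). The fold against the mean of the other classes depends on the prior count, since no lot of red-blood-cell-like cells had a UMI of it, and is not given. By cluster it was highest in cluster 14 (31.9 CPM) and cluster 10 (22.5 CPM), so that the leading cluster of Ren1 and that of Agtr2 in the stroma were both high.

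Hsd11b2, which inactivates glucocorticoids at the mineralocorticoid receptor, was at 54.4, 80.2 and 43.4 CPM in stromal-like cells. It was at 2.17, 2.53 and 2.13 CPM in the pre-granulosa-like class (log2 fold change 4.59 ± 0.376, edgeR adjusted p = 9.22e-11) and 8.53, 13.3 and 5.37 CPM in epithelial-like cells (2.66 ± 0.337, edgeR adjusted p = 4.87e-07). Its highest cluster was again cluster 14, at 317 CPM on average. The receptor itself, Nr3c2, had 234 UMIs in all kept cells and was called in no contrast.

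Mme, neprilysin, which makes angiotensin 1-7 from angiotensin I, was at 37.9, 49.2 and 39.0 CPM in stromal-like cells, 42.6, 33.0 and 36.7 CPM in the pre-granulosa-like class and 26.5, 26.2 and 27.4 CPM in epithelial-like cells. It was higher than the mean of the other classes (log2 fold change 1.53 ± 0.146, edgeR adjusted p = 3.39e-09) and than epithelial-like cells (0.58 ± 0.139, edgeR adjusted p = 0.00179). Against pre-granulosa-like cells the value was 0.04 ± 0.137 (edgeR adjusted p = 0.815). Lower classes for Mme included germ-like cells, at 9.37, 5.26 and 6.75 CPM, and endothelial-like cells, at 9.33, 5.82 and 5.00 CPM. The red-blood-cell-like class was at 0, 2.65 and 7.46 CPM on 0, 1 and 2 UMIs. Each class has the same weight in the mean of the other classes, so the size of that fold rests in part on these few UMIs.

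The list held 2 genes of receptor-binding proteins. Agtrap, which binds the type 1 receptor, was at 15.9, 14.9 and 16.5 CPM in stromal-like cells and 25.0, 23.2 and 22.9 CPM in the pre-granulosa-like class, where the level of Agtr1a was also higher (log2 fold change -0.71 ± 0.138, edgeR adjusted p = 0.000106). Mtus1, which binds the type 2 receptor, was at 13.8, 13.5 and 12.7 CPM in stromal-like cells and 8.04, 9.20 and 8.36 CPM in the pre-granulosa-like class (0.52 ± 0.139, edgeR adjusted p = 0.00278). That call was lost without lot 26 (edgeR adjusted p = 0.0614) and without lot 30 (edgeR adjusted p = 0.0530). Neither was called against epithelial-like cells or against the mean of the other classes (edgeR adjusted p = 0.0817 for Agtrap and 0.157 for Mtus1), though several alternatives called each of them against that mean.

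Among the genes lower in stromal-like than in pre-granulosa-like cells, Klk1, a kallikrein that frees kinins, had a log2 fold change of -3.01 ± 0.340 (edgeR adjusted p = 2.49e-07), Anpep, aminopeptidase N, -2.16 ± 0.227 (edgeR adjusted p = 9.09e-09), and Atp6ap2, the prorenin receptor, -0.91 ± 0.117 (edgeR adjusted p = 2.59e-07). Agtrap, Dpp3, Nln and Rnpep were the other 4. Klk1, Anpep and Atp6ap2 were named after their values were seen. Atp6ap2 was at 152 CPM on average in cluster 11, the highest cluster of Agt, and at most 80.0 CPM on average in every other cluster.

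**Figure D5:**
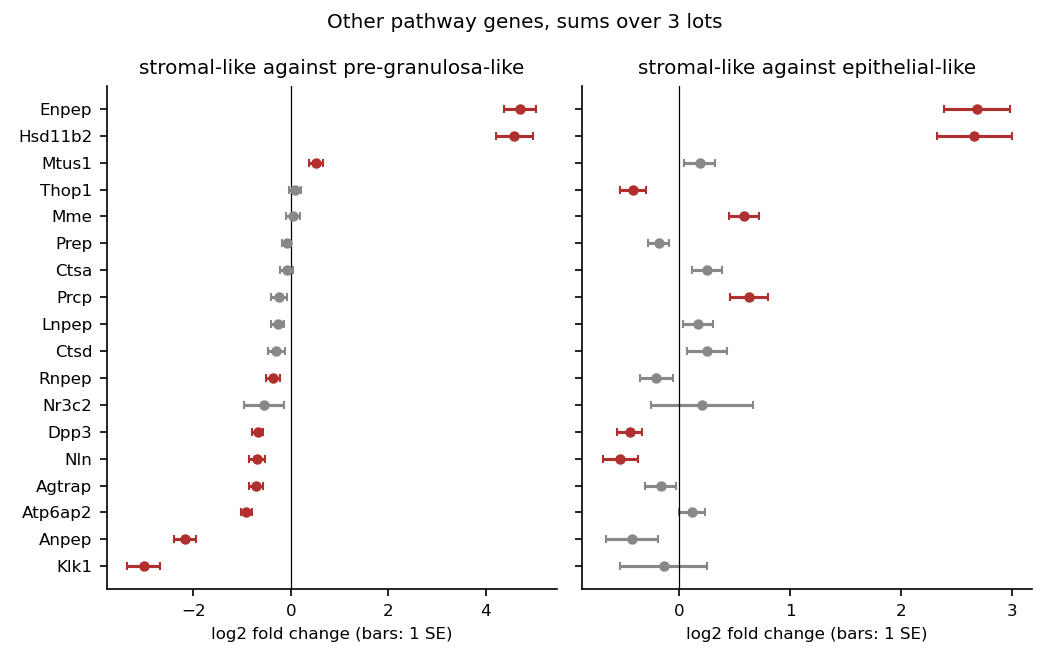
Log2 fold change of stromal-like against pre-granulosa-like (left) and epithelial-like (right) sums for 18 pathway genes (horizontal axes, bars 1 SE), red where the edgeR adjusted p was under 0.05; Cpa3 and Ctsg, with much wider errors, are not drawn. Enpep and Hsd11b2 are above 2.6 on the log2 scale in both.

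Genes known from the lineage of renin-making kidney cells were read as levels only. Foxd1, which marks the stromal origin of those cells, was at 374, 409 and 345 CPM in cluster 13 and 33.6, 51.8 and 41.0 CPM in cluster 10, and at 2.00 CPM on average in cluster 3 and 39.7 CPM in cluster 4, the stromal clusters with most Ren1 UMIs. Tbx18 was likewise highest in cluster 13, at 29.2 CPM. Rgs5, a gene of pericytes, averaged 21.5 CPM in cluster 3, 21.3 CPM in cluster 4 and 209 CPM in cluster 21, where the lots ranged from 10.9 to 422 CPM. Akr1b7, made beside renin in kidney, ranged from 3.12 to 38.0 CPM over the lots in cluster 14 and from 7.39 to 14.8 CPM in the Sertoli-like cluster, so the lots set no order between them. Rbpj ranged from 11.8 to 117 CPM over the clusters, Crip1 was highest in cluster 18 at 304 CPM, and Nr1h3 averaged 8.83 CPM in cluster 18 and at most 1.22 CPM in every other cluster. The cluster with most Foxd1 thus had little Ren1, 2.87, 1.51 and 2.23 CPM on 3, 3 and 4 UMIs.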

How the data were processed

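The authors deposited tables of UMI counts per gene and cell, 1 per lot, from 10X 3′ libraries aligned to GRCm38. The submitters' processing notes name UMI-tools, STAR 2.7, featureCounts 2.0.1 and Seurat, and the strand setting of the counting is not given in the sources used here. The 3 lots are 26, 29 and 30, with 126680758, 87494974 and 141920060 UMIs. The members and lists were chosen with earlier results of these data known. Cells were kept with 200 to 9000 genes and at most 10% mitochondrial UMIs, and clustered with Seurat 5.3.0 (50 principal components, resolution 0.8). Of 2000 variable genes, 1979 remained after the members, the pathway genes and the cell type genes from the authors' figures were held out. Clusters were named from 12 marker lists by score, markers raised and the share of cells with at least 2 markers. Doublets were called with Scrublet (4.06 to 5.93% of cells) and removed only as an alternative. CPM and shares were computed per cluster, class and lot, with mean ± SD over 3 lots. Exact Poisson and Clopper-Pearson 95% intervals, and the floor of 3 UMIs that a count of 0 allows, cover counting error only. Counts at the 3′ end were not scaled by length, so levels were not compared between genes.

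UMI counts of the deposited tables were summed per class and lot for the 8 named classes with at least 10 cells in every lot, without Sertoli-like cells. The quasi-likelihood test of edgeR 4.0.16 was applied with TMM factors and the filterByExpr filter, at a Benjamini-Hochberg adjusted p under 0.05, after a test on simulated data. All 8 classes entered 1 fit, so the p-values measure a spread between 3 lots that is pooled over these classes. Without a block, that fit takes sums of the same lot as independent. Class sums of 1 lot come from the same pool, and their deviations from the class means correlated at 0.458 to 0.590, so the lot was used as a block in an alternative. Other alternatives were DESeq2 1.42.0, RLE factors, no filter, 3 classes only, other clusterings, stricter cells, doublets removed and each lot left out. Named were the members, pathway genes called against the mean of the other classes with a log2 fold change of 1 or more, receptor genes, the genes most like each member, and fixed marker and renin lineage genes. Those outside this rule are named as chosen after their values were seen. The results of some genes named by this rule are not reported here.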

Additional observations from a re-analysis of the deposited data

How the results depend on the processing

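Every Enpep and Hsd11b2 call, and Mme against the mean and against epithelial-like cells, kept its direction and its side of the threshold under all alternatives run. Over all named pathway genes 275 alternative values did so. Mtus1 against pre-granulosa-like cells lost its call without lot 26 or without lot 30, Agtrap and Mtus1 against the mean gained one under 7 and 3 alternatives, and Mme against pre-granulosa-like cells, never called, ranged from -0.13 without lot 29 (edgeR adjusted p = 0.447) to 0.23 without lot 26. The level of Agtr2 in stromal-like cells (21.4 CPM) was 35.3 CPM at resolution 0.4, 28.3 CPM as the mean of each cell's CPM and, chosen after seeing the data, 31.3 CPM with clusters 3 and 11 unnamed. That of Agt (1.72 CPM) was 1.10 CPM and 1.02 CPM in the first and last of these. Agtr2 in neural-crest-like cells was 664 CPM at resolution 0.4 and 860 CPM with the held-out genes, Agtr2 among them, put back. Shares of cells moved with depth by construction, to 4.45% at 2000 UMIs and 12% without thinning for Agtr2 in stromal-like, 0.841% and 2.79% for Ren1 in stromal-like and 2.00% and 9.49% for Agtr1a in pre-granulosa-like cells. Genes called lower than the mean (4) numbered 7 at resolution 0.4, without doublets, with RLE factors and with 3 classes, 11 with DESeq2, and 2 with stricter cells or no filter, while all genes called lower (903 in the test as reported) also changed in number, to 1567, 1274, 1294, 3444, 3106, 880 and 774 in the same order. Those lower than in epithelial-like cells (3) numbered 5 at resolution 0.4 and 5 with the lot as a block. All genes so called went from 1934 to 2238 and 3492. The block raised those lower than in pre-granulosa-like cells from 7 to 9 (all genes, 3560 to 4740). It raised those higher than in epithelial-like cells from 5 to 6 (all genes, 2303 to 3541), and moved no other count by over 1.5 times. Over the lots left out in turn, those lower than in epithelial-like cells numbered 0 to 4, beside 1040 to 1987 of all genes. Ren1 in cluster 14 ranged from 57.1 to 118 CPM. The cause of these moves was otherwise not tested. Levels of a few UMIs (Ace, Agtr1b, Mas1) are limited by depth.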

Other observations

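Mast cell proteases that can form angiotensin II outside the renin pathway were low in the somatic classes. Cma1 had 125 UMIs in all kept cells and averaged 27.5 CPM in the macrophage-like cluster 18 (0 to 82.6 CPM over the lots), at most 0.571 CPM in every other cluster, and 0 in clusters 3, 10 and 13. Klk1 averaged 13.4 CPM in the Sertoli-like cluster (11.1 to 16.2 CPM over the lots), above its level of 6.79 CPM in cluster 0, the highest pre-granulosa-like cluster. Of the kinin receptor genes, Bdkrb1 had 39 UMIs and Bdkrb2 30 UMIs, too few for a test. These genes were chosen after their values were seen.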
